A study of Mus musculus with 4 samples.

Results

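The interferon regulatory factor (IRF) genes Irf1, Irf2, Irf3, Irf4, Irf5, Irf7, Irf8 and Irf9 were followed in mouse articular cartilage with and without injury. They were found by their symbols, and these 8 rows stood among 24532 genes of the table. All 8 genes had a value above 0 in every library and were among the 18181 genes compared. The data were 4 bulk RNA-seq libraries, 1 per group, of cartilage from wild type C57BL/6 mice, which were sham operated or injured, each at a young and an adult age. Young mice were 3 weeks old. The titles give 12 weeks for the adult mice, the age field gives 14 weeks, and the methods give a younger age than both. Titles name the injury as DMM surgery (destabilization of the medial meniscus), whereas the methods describe a full-thickness cartilage injury (FTCI) made with a needle in the patellar groove of the femur. The libraries are dated to day 3 after the operation, except adult sham, whose label covers days 3 to 14. Each library was made from the pooled cartilage of several mice, with more mice in the injured pools, and the label names the cells as chondrocytes. The question put to these groups was how the early response to a cartilage injury differs between young and adult mice.

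IRF proteins are transcription factors that share a DNA-binding domain and bind GAAA repeats in the interferon-stimulated response element (ISRE). IRF3, IRF5 and IRF7 are switched on by kinases downstream of receptors for nucleic acids and microbial products and induce type I interferon genes. IRF9 is the DNA-binding part of ISGF3, the complex that carries the type I interferon signal to the nucleus, IRF1 is induced by interferon gamma, IRF2 competes with IRF1 for its sites, and IRF4 and IRF8 direct the development of B cells, macrophages and dendritic cells.

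With 1 library per group there was no replicate, so no p-value, standard deviation or interval is given, and each difference compares 2 libraries. Values are FPKM (a fragment count set relative to gene length and sequencing depth). A log2 ratio is that of FPKM + 1, which understates the change of low genes, and a gene counts as higher or lower at 2-fold, a log2 ratio of 1 or -1. The FPKM of single-transcript genes lay on steps that correspond to about 25700000 to 30900000 fragments per library if 1 step is 1 fragment. The summed FPKM ran from 469939 to 533468. The libraries also differed in cell markers. All 12 chondrocyte markers, such as the collagen gene Col2a1, were at 1 FPKM or more in every library. However, 8 of them were at least 2-fold lower in adult than in young sham cartilage (median log2 ratio -1.77), against 10.6% of the genes compared. After injury 2 of the 12 were 2-fold lower in young mice, against 1.27% of genes. In adults 5 were 2-fold higher, against 6.90% of genes, or 3 with median-of-ratios and quantile scaling. The summed FPKM of 12 macrophage markers was 204 without and 1927 with injury in young mice, and 330 without and 1673 with injury in adult mice. At each age 11 of the 12 were at least 2-fold higher after injury, against 4.57% (young) and 6.90% (adult) of genes. In bulk cartilage, fewer cells of a type and less RNA per cell cannot be told apart, and the part of these markers in the IRF values was not tested.

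In young mice 4 of the 8 genes, Irf5, Irf7, Irf8 and Irf9, were at least 2-fold higher in the injured library, against 4.57% of the 18181 genes compared, and none was 2-fold lower, against 1.27%. In adult mice 3 of the 8, Irf5, Irf7 and Irf8, were at least 2-fold higher, against 6.90% of genes, and none was 2-fold lower, against 1.46%. The median log2 injury ratio of the 8 genes was 0.98 (young) and 0.70 (adult), where the medians of all genes compared were 0 and 0.14. For the 10891 genes that reached 1 FPKM in each of the 4 libraries the medians were -0.04 in young and 0.23 in adult mice, so the adult ratios sit on a higher baseline.

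**Figure D1:**
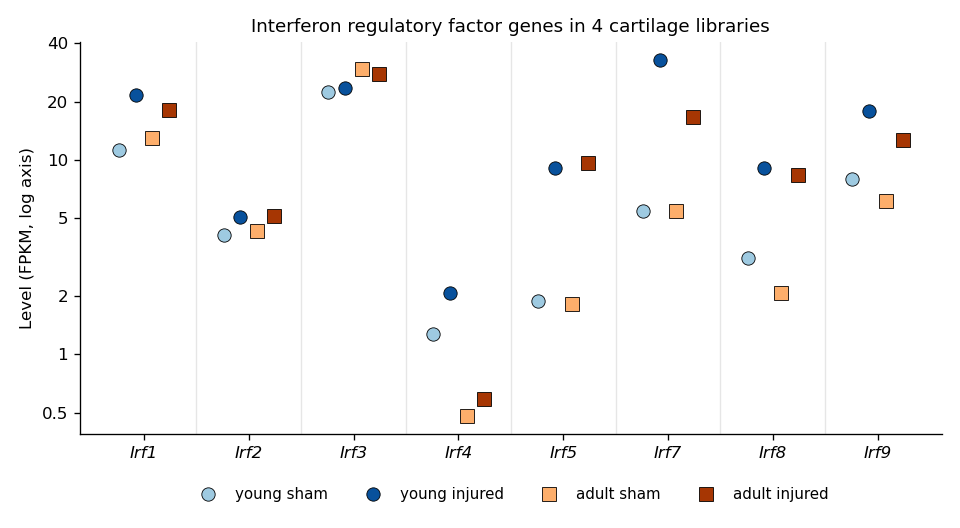
Level of each IRF gene in FPKM (log axis) in the 4 libraries, with circles for young and squares for adult mice, pale for sham and dark for injured cartilage. Irf1, Irf2, Irf5, Irf7, Irf8 and Irf9 sit higher in both injured libraries than in both sham libraries. Irf3 stays between 22.4 and 29.6 FPKM, and Irf4 is higher in both young than in both adult libraries.

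Promoter sequence is shown first for the 3 members whose window held a match to a motif of the interferon pathways. RefSeq windows (GRCm38.p6) of 300 bases, from 250 before to 50 after a transcript start, were searched on both strands for the ISRE core GAAANNGAAA and for the gamma-activated sequence (GAS), TTCNNNGAA, which do not overlap each other in these windows. The 8 genes had 11 such windows. The ISRE core occurred in 3.44% of 32851 windows of the genome and, among the 8 genes, in Irf2. GAS occurred in 8.30% of windows and, among the 8 genes, in Irf1, Irf2 and Irf8. The other 5 genes held neither run of letters in their windows, which says nothing of sites elsewhere. Bases 250 to 51 before the start are printed 5′ to 3′ on the plus strand, chr11:53769764-53769963 for Irf1, chr8:46739495-46739694 for Irf2 and chr8:120736108-120736307 for Irf8, with matches in capitals.
Irf1: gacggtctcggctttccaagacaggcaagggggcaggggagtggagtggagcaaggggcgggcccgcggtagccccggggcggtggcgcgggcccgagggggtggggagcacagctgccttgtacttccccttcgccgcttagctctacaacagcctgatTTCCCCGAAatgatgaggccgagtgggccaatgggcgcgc
Irf2: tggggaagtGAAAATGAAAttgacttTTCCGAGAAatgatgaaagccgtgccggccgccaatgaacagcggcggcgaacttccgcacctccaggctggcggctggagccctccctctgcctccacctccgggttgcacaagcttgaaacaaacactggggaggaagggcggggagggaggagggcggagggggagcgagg
Irf8: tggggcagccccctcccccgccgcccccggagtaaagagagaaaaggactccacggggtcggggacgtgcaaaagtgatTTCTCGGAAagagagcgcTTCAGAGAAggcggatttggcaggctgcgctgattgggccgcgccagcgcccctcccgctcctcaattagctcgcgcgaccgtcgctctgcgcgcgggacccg
The match TTCCCCGAA of Irf1 lies 90 to 82 bases before the start. Irf2 holds the ISRE core match GAAAATGAAA at 241 to 232 and the GAS match TTCCGAGAA at 224 to 216 bases before the start. Irf8 holds a pair of GAS matches, TTCTCGGAA at 171 to 163 and TTCAGAGAA at 153 to 145. A match is a run of letters and not a measured site.

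Irf7, the IRF that amplifies type I interferon production once interferon has induced it, had the largest young injury ratio of the 8 genes. Irf7 (Entrez 54123, chr7:141263183-141266499, minus strand, GRCm38.p6) had 5.46 FPKM in sham and 32.7 in injured cartilage of young mice, and 5.47 and 16.7 FPKM in those of adult mice. The sham levels differed by 0.00 on the log2 scale, while young injured cartilage lay 0.92 above adult injured cartilage. Adult sham was higher by 0.37 with median-of-ratios and with quantile scaling. Its log2 injury ratios were 2.38 (young) and 1.46 (adult), or 5.98-fold and 3.06-fold in FPKM. In young mice 99.2% of the genes compared had a lower ratio, and in adult mice 97.1%. The young ratio exceeded the adult one by 0.92, the widest age gap of the 8 genes, and this gap ran from 0.74 to 1.24 over the other pseudocounts and scalings. No gene of the 8 reached an age gap of 1 with FPKM and a pseudocount of 1.

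Irf3, the constitutive IRF that starts type I interferon production, was not 2-fold apart in any comparison. Irf3 (Entrez 54131, chr7:44997648-45002848) had 22.4 FPKM in young sham and 23.6 in young injured cartilage, and 29.6 and 27.6 FPKM in the adult pair of libraries. It was the highest of the 8 genes in 3 libraries, and Irf7 was above it in young injured cartilage. Its log2 injury ratios were 0.07 (young) and -0.09 (adult), and with values rescaled to a common sum (TPM) they were -0.04 and 0.0003. The adult ratio was -0.42 with median-of-ratios and -0.32 with quantile scaling. The FPKM ratio of Irf7 to Irf3 went from 0.244 in young sham to 1.38 in young injured cartilage, and from 0.185 to 0.606 in adult mice. Irf3 overlaps Bcl2l12 on the opposite strand by 1065 bases (GENCODE M21), and whether the counting used strand is not given in the sources used here.

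Irf5, which drives inflammatory cytokine genes in macrophages, was low in sham cartilage and high after injury. Irf5 (Entrez 27056, chr6:29526130-29541869) had 1.87 FPKM in sham against 9.11 in injured cartilage in young mice, and 1.81 against 9.65 FPKM in adult mice. In FPKM both ages had nearly the same level in sham and in injured cartilage, but adult sham was higher by 0.26 and 0.31 on the log2 scale with median-of-ratios and quantile scaling. On the log2 scale the injured libraries were 1.82 (young) and 1.92 (adult) higher, or 4.87-fold and 5.33-fold in FPKM. In young mice 98.5% and in adult mice 98.7% of genes had a lower ratio. The adult ratio was larger by 0.11, and this order turned under median-of-ratios and quantile scaling. Irf5 overlaps Tnpo3 on the opposite strand by 1045 bases.

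Irf8, which sets the fate of monocytes, dendritic cells and B cells, was also higher after injury. Irf8 (Entrez 15900, chr8:120736358-120756694) had 3.12 FPKM in young sham against 9.07 in young injured cartilage, and 2.06 against 8.40 FPKM in adult mice. Its injured levels were close between the ages. Its sham level was lower in adult mice, with a log2 ratio of -0.43, but of only -0.12 with median-of-ratios and -0.04 with quantile scaling. Injury ratios on the log2 scale were 1.29 (young) and 1.62 (adult), or 2.90-fold and 4.07-fold in FPKM. With quantile normalization the log2 ratio was 1.26 at both ages. With a pseudocount of 5 FPKM both ratios were under 2-fold, at 0.79 and 0.92. Irf8 lies within Gm20388, an annotated gene on the same strand, so fragments could be assigned to either.

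Irf9, the DNA-binding subunit of ISGF3, was near the 2-fold line at both ages. Irf9 (Entrez 16391, chr14:55603985-55610030) had 7.98 FPKM in young sham against 18.0 in young injured cartilage, and 6.15 against 12.7 FPKM in adult mice. Both injured libraries lay above both sham libraries. Its log2 injury ratios were 1.08 (young) and 0.94 (adult), which is 2.25-fold and 2.06-fold in FPKM. In unscaled FPKM the adult value was therefore under the line through the added pseudocount. The adult ratio was further under the line with median-of-ratios (0.64) and quantile scaling (0.63). Over the alternatives the young ratio ran from 0.82 to 1.16 and the adult ratio from 0.63 to 1.08. Stat2, the gene of a partner in ISGF3, was 0.79 higher after injury in young mice and 0.84 higher in adults on the log2 scale. The FPKM ratio of Irf9 to Stat2 was 1.36 in young sham and between 1.65 and 1.70 in the other 3 libraries. Irf9 shared 4.24% of its 31-base transcript words with other genes, the most of the 8, and it overlaps Rnf31 on the same strand by 123 bases.

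Irf1, an interferon gamma-induced activator of antigen presentation genes, was higher after injury without reaching 2-fold. Irf1 (Entrez 16362, chr11:53770014-53778374) had 11.2 FPKM in young sham against 21.7 in young injured cartilage, and 13.0 against 18.2 FPKM in adult mice. It was the second gene by level in both sham libraries and in adult injured cartilage, and the third in young injured cartilage. Its log2 injury ratios were 0.89 (young) and 0.46 (adult), or 1.93-fold and 1.40-fold in FPKM. The adult ratio was 0.14 with median-of-ratios and 0.21 with quantile scaling. In young mice 94.6% of genes had a lower ratio, and in adult mice 75.4%. The larger ratio stood in young mice under all alternatives, by 0.24 to 0.73.

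Irf2, the antagonist of IRF1, differed little between the libraries. Irf2 (Entrez 16363, chr8:46739745-46847458) had 4.09 FPKM in young sham against 5.11 in young injured cartilage, and 4.30 against 5.17 FPKM in adult mice. The injured levels were 1.25-fold and 1.20-fold the sham levels in young and adult mice, and the log2 injury ratios were 0.26 and 0.22. The adult sign turned under median-of-ratios and quantile scaling. The FPKM ratio of Irf1 to Irf2 was 2.74 in the sham and 4.24 in the injured library of young mice, and 3.01 and 3.51 in those of adult mice, and so was higher in the injured library at each age.

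**Figure D2:**
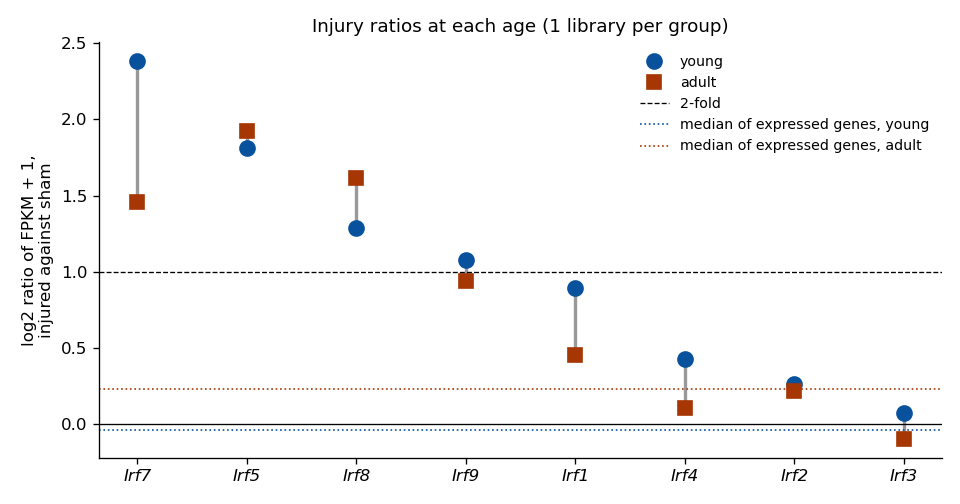
log2 ratio of FPKM + 1, injured against sham, for each IRF gene in young (circles) and adult (squares) mice, with the 2-fold line dashed and the median of genes at 1 FPKM or more in all libraries dotted (-0.04 young, 0.23 adult). Irf7 has the widest gap between the ages (2.38 and 1.46), Irf5 and Irf8 are the genes with the larger ratio in adult mice, and Irf2, Irf3 and the adult Irf4 ratio lie under the adult median line or near it.

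Irf4, a factor of B cells, plasma cells and alternatively activated macrophages, was the lowest of the 8 genes in every library and differed more by age than by injury. Irf4 (Entrez 16364, chr13:30749233-30766981) had 1.27 FPKM in young sham against 2.06 in young injured cartilage, and 0.477 against 0.589 FPKM in adult mice. Both young libraries were above both adult libraries. Its log2 injury ratios were 0.43 (young) and 0.11 (adult). The adult sign turned with median-of-ratios (-0.01) and quantile scaling (-0.14). The log2 ratio of adult to young sham cartilage was -0.62, and that of young to adult injured cartilage was 0.94, or 3.49-fold in FPKM. At this level the call depends on the pseudocount, since with 0.1 FPKM in its place these ratios were -1.25 and 1.65. If 1 step is 1 fragment, about 160 and 256 fragments stood behind the young values and about 70 and 72 behind the adult ones. B cell markers moved with the age difference: their summed FPKM was 66.8 without and 94.0 with injury in young mice, and 15.3 without and 24.7 with injury in adults. In the sham libraries 9 of 10 B cell markers were at least 2-fold lower in adult mice, against 10.6% of all genes compared. The median of their log2 ratios was -1.40, against -0.15 over all genes compared. The part of B cells in the Irf4 difference was not tested.

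Between the sham libraries none of the 8 genes differed by 2-fold, against 2.66% of genes that were higher and 10.6% that were lower in adult mice. The log2 ratios of the 8 ran from -0.62 for Irf4 to 0.38 for Irf3, with a median of -0.02, while the median over the genes at 1 FPKM or more in all libraries was -0.30. With median-of-ratios and quantile scaling the Irf3 ratio was 0.81 and 0.63. Between the injured libraries none of the 8 was 2-fold apart either, against 3.09% of genes that were higher and 1.80% that were lower in young mice. The log2 ratios of young to adult injured cartilage ran from -0.22 for Irf3 to 0.94 for Irf4, with Irf7 at 0.92 and Irf9 at 0.47. These comparisons share libraries with the injury comparisons and are no separate evidence, and the part of the lower chondrocyte markers of adult sham cartilage in them was not tested.

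The age order of the injury ratios depended on the scaling for most members. For 6 of the 8 genes the young log2 injury ratio was the larger one, and for Irf5 and Irf8 the adult one. With TPM it was larger in young mice for 3 genes, with median-of-ratios scaling for 7 and with quantile normalization for 8. Irf1, Irf4 and Irf7 had the larger ratio in young mice under all of these settings.

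**Figure D3:**
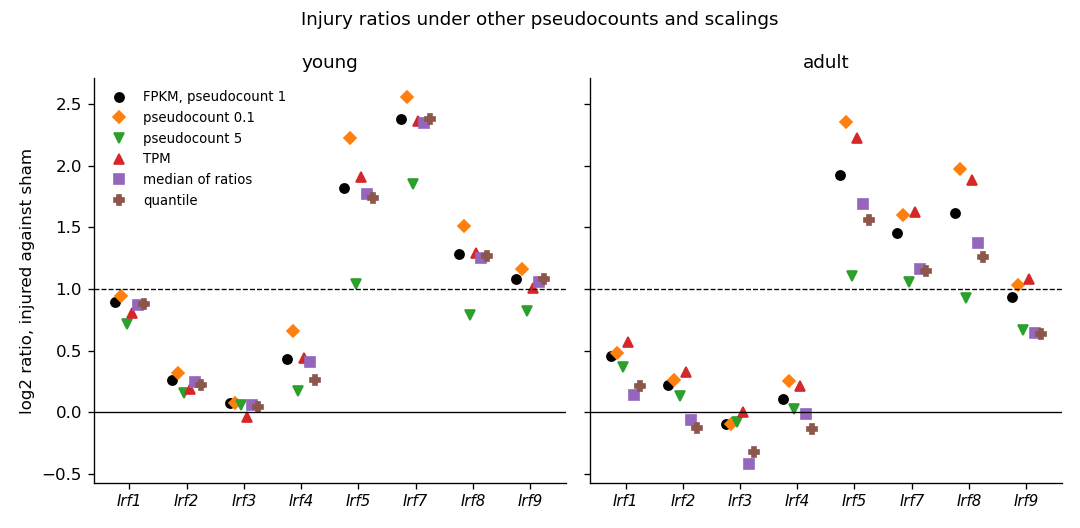
log2 injury ratios of the 8 genes in young (left) and adult (right) mice with FPKM and a pseudocount of 1 (black circles), other pseudocounts and other scalings, 1 library per group. Irf5 and Irf7 stay above the dashed 2-fold line in every setting at both ages, Irf8 drops to 0.79 and 0.92 with a pseudocount of 5, and adult Irf9 crosses the line between settings.

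The summed level of the 8 genes was 57.5 FPKM without and 121.3 with injury in young mice, and 62.8 without and 99.0 with injury in adults, and its make-up shifted with injury. Irf3 made up 39.0% of the sum in young sham and 19.5% in young injured cartilage, and 47.1% and 27.9% in adult mice. The share of Irf7 was 9.51% and 26.9% in young, and 8.70% and 16.9% in adult mice. Irf5 and Irf8 together held less than Irf7 in young injured cartilage, with 7.51% and 7.48%, and more than it in adult injured cartilage, with 9.74% and 8.48% against 16.9%. The share of Irf1 stayed between 17.9% and 20.6% in all 4 libraries.

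**Figure D4:**
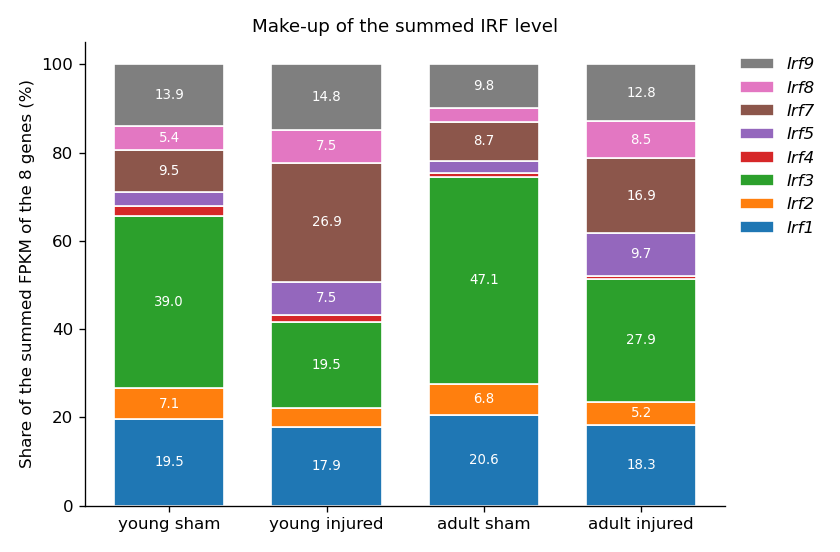
Share of each IRF gene in the summed FPKM of the 8 genes, in percent, for the 4 libraries. Irf3 is the largest part in both sham libraries (39.0% and 47.1%) and in adult injured cartilage (27.9%), and Irf7 is the largest in young injured cartilage (26.9%).

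The genes around the IRFs were described by lists, with counts of members at least 2-fold higher after injury, which stand against 4.57% of all genes compared in young and 6.90% in adult mice, and against all-gene medians of 0 and 0.14. Among 22 sensors, adaptors and kinases upstream of IRF3, IRF5 and IRF7, 8 were higher at each age, and the median log2 injury ratios were 0.54 (young) and 0.70 (adult). The counts were 8 and 4 with median-of-ratios scaling, 7 and 4 with quantile normalization, 10 and 13 with a pseudocount of 0.1, and 5 and 3 with 5, and under quantile normalization the median was larger in young mice, at 0.49 against 0.41. Zbp1, a sensor of Z-form nucleic acids, had 0.895 FPKM in young sham against 12.1 in young injured cartilage, and 0.460 against 6.95 FPKM in adult mice. Tmem173, which encodes the adaptor STING, had log2 injury ratios of 1.92 and 1.84, and Myd88, the adaptor of most Toll-like receptors, of 1.19 and 1.15. The kinase genes whose products phosphorylate IRF3 and IRF7 differed less, with 0.22 and 0.52 for Tbk1 and 0.40 and 0.34 for Ikbke. Both kinase genes were already at 7.03 to 9.86 FPKM in sham cartilage.

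Interferon transcripts themselves were at or near 0. Of 10 interferon genes 4 had any value above 0, none over 0.07 FPKM: Ifnb1 was at 0.049 FPKM in young injured and Ifng at 0.032 FPKM in adult injured cartilage, and both were listed at 0 in the other 3 libraries. The receptor genes were expressed throughout, with Ifngr1, the ligand-binding chain of the interferon gamma receptor, between 23.9 and 36.6 FPKM, and Ifnar2 of the type I receptor between 30.2 and 42.3 FPKM. In both genes each injured library was above its sham library. Of 6 receptor genes, Il10rb was 2-fold higher at both ages and Ifngr2 in adults. Both adult calls were lost with median-of-ratios and quantile scaling, and all calls with a pseudocount of 5.

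The 16 target genes of IRF3, IRF7 and ISGF3 had larger injury ratios in young than in adult mice. After injury 15 of them were at least 2-fold higher in young mice and 8 in adults, against 4.57% and 6.90% of all genes, with median log2 ratios of 2.29 and 1.10. These counts were 16 and 13 with a pseudocount of 0.1, 9 and 1 with a pseudocount of 5, and 15 and 11 with TPM. This held for 16 of 16 genes, for 15 with a pseudocount of 0.1 or of 5, and for 14 with TPM. Ifit3, an interferon-induced antiviral protein gene, had 1.84 FPKM in young sham against 24.6 in young injured cartilage, and 9.93 against 12.3 FPKM in adult mice, with log2 injury ratios of 3.17 and 0.28. Usp18, a brake on type I interferon signalling, had 1.24 against 12.2 FPKM in young and 1.70 against 3.19 FPKM in adult mice, with ratios of 2.56 and 0.63. Cxcl10, a chemokine that attracts T cells, was high at both ages, with ratios of 3.03 and 2.40. In injured cartilage 6 of the 16 were at least 2-fold higher in young than in adult mice, against 3.09% of all genes. These genes were known to respond in earlier results of these data, so their direction is no independent support for the IRF values.

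Target genes of IRF1 made up the next list. Of 10 such genes 5 were 2-fold higher after injury at each age, against 4.57% and 6.90% of all genes, and the medians were 1.04 (young) and 1.02 (adult), against 0 and 0.14. The immunoproteasome gene Psmb8 had 4.62 FPKM in young sham against 22.1 in young injured cartilage, and 7.88 against 21.8 FPKM in adult mice. The called genes were not the same at both ages: Psmb9, another immunoproteasome gene, had log2 injury ratios of 1.76 (young) and 0.96 (adult), and Nos2, which encodes inducible nitric oxide synthase, had 0.41 (young) and 2.49 (adult). The counts moved to 9 and 9 with a pseudocount of 0.1, to 2 and 1 with 5, and to 6 and 9 with TPM. The medians were 1.24 and 1.40 with TPM and 0.96 and 0.72 with quantile normalization.

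Genes linked to the myeloid IRFs gave mixed counts. Of 5 cytokine genes that IRF5 induces, Tnf and Il1b were 2-fold higher at both ages with FPKM and a pseudocount of 1, with log2 injury ratios of 1.37 and 1.07 for Tnf. Il1b, the gene of an inflammatory cytokine, had 0.394 FPKM in young sham against 8.27 in young injured cartilage, and 0.453 against 22.2 FPKM in adults. Of 7 IRF8 target genes 3 were higher at both ages. Ctsc, a protease that activates granule enzymes, had log2 injury ratios of 3.20 and 2.86, and Cybb, a subunit of the phagocyte oxidase, had 1.38 and 1.59. Spi1, which encodes PU.1, the partner of IRF4 and IRF8 on DNA, had 4.86 FPKM in young sham against 20.6 in young injured cartilage, and 5.97 against 30.4 FPKM in adult mice. The FPKM ratio of Irf8 to Spi1 was 0.643 in the sham and 0.439 in the injured library of young mice, and 0.345 and 0.276 in those of adults, so Spi1 differed more with injury than Irf8 did. Of the 10 DNA-binding partners and coactivators, 2 were 2-fold higher in young mice and 5 in adults, Spi1 at both ages, and the adult count ran from 1 to 7 over the other settings. Spib, a PU.1 relative of B cells, had a log2 ratio of adult to young sham cartilage of -2.26, the same sign as Irf4. Of 6 corepressors and regulators of IRF proteins 0 were 2-fold higher in young mice and 1 in adults, a share near that of all genes. Of 7 genes linked to IRF4 in alternatively activated macrophages 2 were higher in young mice and 3 in adults, against 4 and 3 with a pseudocount of 0.1, 2 and 1 with 5, and 2 and 2 with median-of-ratios and quantile scaling.

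**Figure D5:**
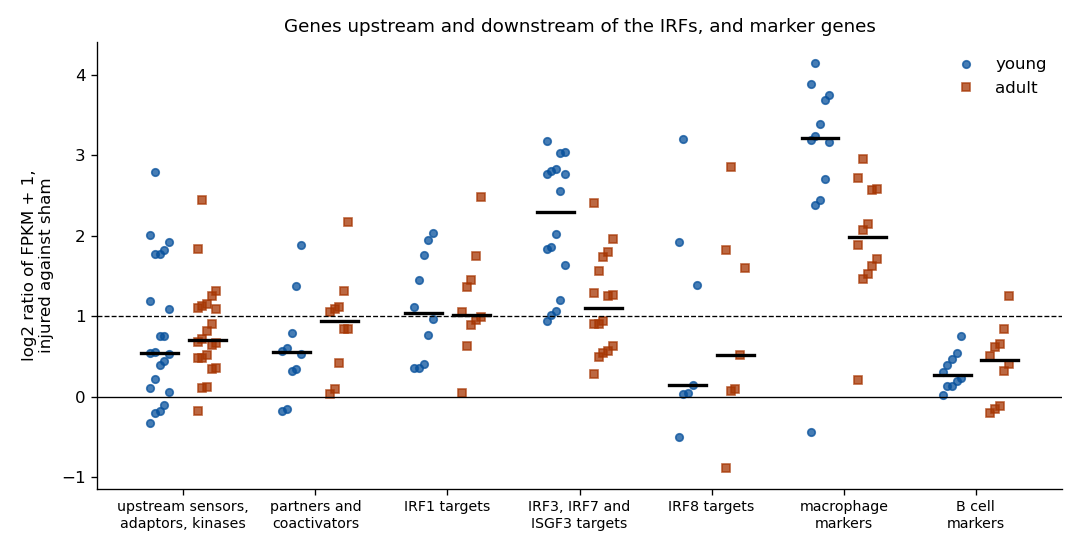
log2 ratio of FPKM + 1, injured against sham, for each gene of 5 lists around the IRFs and of 2 marker lists, in young (circles) and adult (squares) mice, with list medians as bars. IRF3, IRF7 and ISGF3 targets have medians of 2.29 (young) and 1.10 (adult), IRF1 targets 1.04 and 1.02, and macrophage markers 3.21 and 1.98.

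The median log2 injury ratio of the macrophage markers was 3.21 in young mice, above that of each IRF gene, and 1.98 in adults. Single markers ranged widely, with Mertk at -0.45 and C1qb at 4.15 in young mice. The IRF ratio minus that median was -1.39 (young) and -0.06 (adult) for Irf5, -0.83 and -0.52 for Irf7, and -1.92 and -0.36 for Irf8. The other 5 genes lay further under that median at both ages, and all 8 lay nearer to it in adult mice, where the median itself was lower. The FPKM ratio of Irf5 to Csf1r, the receptor gene that marks macrophages, was 0.237 without and 0.191 with injury in young mice, and 0.106 without and 0.176 with injury in adults. That of Irf8 to Csf1r was 0.395 and 0.191 in young and 0.120 and 0.153 in adult mice. The other marker lists were lower or moved less: summed neutrophil markers had 1230 FPKM without and 2511 with injury in young mice, and 1624 without and 1969 with injury in adults, dendritic cell markers between 5.45 and 11.5 FPKM, and T and NK cell markers between 1.49 and 6.82 FPKM. Markers of osteoclasts, whose formation IRF8 restrains, had median log2 injury ratios of 1.08 (young) and 1.80 (adult), against all-gene medians of 0 and 0.14. Of the 6 markers 3 and 5 were at least 2-fold higher, against 4.57% and 6.90% of all genes. With a pseudocount of 5 the osteoclast medians were 0.62 and 1.15, and 1 and 3 markers were higher. Of 4 plasma cell markers, Prdm1, Tnfrsf17 and Jchain lay between 0 and 1.35 FPKM, and Sdc1, which other cells also express, lay between 14.3 and 38.4 FPKM. Of 11 neutrophil markers 4 were 2-fold higher after injury in young mice and 2 in adults, against 4.57% and 6.90% of all genes. Their median log2 ratios were 0.95 and 0.41. With quantile normalization 1 and 2 neutrophil markers were higher, and with TPM 2 and 3. These markers were not tested as a source of any IRF transcript.

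Likeness to other genes was measured as the distance between patterns of log2(FPKM + 1) over the 4 libraries, each centred on its own mean, among the 8055 genes whose mean reached 5 FPKM, which Irf2 and Irf4 did not. The nearest genes to Irf5 were Csf3r, the receptor for the neutrophil growth factor G-CSF, at a distance of 0.09, and Myo1f and Plekho1, both at 0.11. Irf7 had fewer near genes, with 22 within 0.5, and the closest were 1810011O10Rik at 0.21, Tbxas1 at 0.25 and Emcn at 0.30. For Irf8 they were C130050O18Rik, Rac2 and Tgfbi, at 0.15 to 0.19, and for Irf9 Prcp, Ngp and Rab8b, at 0.14 to 0.19. Irf1 lay nearest to Dazap2, Msn and Arhgdib, at 0.07 to 0.11, and Irf3 to Mtg2, Pnpla6 and Nat9, at 0.02 to 0.03. Irf3 had 2254 genes and Irf1 473 within 0.5, so their patterns are common ones, whereas Irf5 had 53, Irf8 85 and Irf9 142. With 4 libraries these distances are descriptions and carry no test.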

How the data were processed

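Cartilage RNA of 4 pools of mice was sequenced from libraries of a stranded poly-A kit. The authors deposited FPKM per gene and library. The submitters' processing notes name HISAT2 2.1.0, StringTie 1.3.4d, STAR, SAMtools and mm10, without saying which made the values. All 4 columns were matched to a library by name. The 18181 genes above 0 in at least 1 library were compared as log2 ratios of FPKM + 1, in 4 comparisons, and called at 2-fold. With 1 library per group no test was run. Alternatives were pseudocounts of 0.1 and 5, a minimum of 1 FPKM in at least 1 library, TPM, median-of-ratios and quantile scaling, and thresholds of 1.5-fold and 3-fold. Median-of-ratios and quantile scaling moved the median of genes at 1 FPKM or more in all libraries from 0.23 to -0.06 in the adult injury comparison and from -0.30 to 0.07 and 0.02 between sham libraries.

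The members and lists were chosen with earlier results of these data known. Named genes are the members, the genes of the lists, and the 3 genes nearest to each member with a mean of at least 5 FPKM. Positions of the genes are those of RefSeq on GRCm38.p6, and overlaps come from GENCODE M21. The scripts, in Python 3.11.15 with numpy 2.4.6, pandas 2.3.3 and matplotlib 3.10.9, were tested on simulated data. The study's Gene Ontology analysis was not used here. The values of some list genes are not reported here. FPKM are relative values, so a change in a few abundant cartilage transcripts moves all others.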

Additional observations from a re-analysis of the deposited data

Results flagged for a closer look

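Irf3 was the gene of the 8 with opposite signs at the ages, with log2 injury ratios of 0.07 (young) and -0.09 (adult), a difference of 0.17. With 1 library per group this difference was not tested, and it ran from -0.04 to 0.48 over the alternatives. In FPKM the injured level was 1.05-fold the sham level in young and 0.935-fold in adult mice. No other gene of the 8 differed in sign between the ages with FPKM and a pseudocount of 1.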

How the results depend on the processing

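Of 32 single-gene log2 ratios (8 genes in 4 comparisons), 24 kept their sign and 26 their side of the 2-fold line under all 6 other pseudocounts, scalings and filters. In young mice 4 genes were at least 2-fold higher after injury, and 2 were with a pseudocount of 5 and 2 at 3-fold. The adult count of 3 stayed within 1.5 times under all alternatives. Between sham libraries the count of 0 became 1 with a pseudocount of 0.1 and 1 at 1.5-fold, and between injured libraries it became 1 with a pseudocount of 0.1, 1 with TPM and 2 at 1.5-fold. The median of the 8 genes moved as follows with pseudocounts of 0.1 and 5, TPM and median-of-ratios scaling. In young injury it was 1.05, 0.75, 0.91 and 0.96. In adult injury it was 0.76, 0.52, 0.82 and 0.39, and 0.42 with quantile normalization. Between sham libraries it was -0.022, -0.0062, -0.045 and 0.32, and 0.34 with quantile normalization. Between injured libraries it was 0.18, 0.14, 0.0013 and 0.064, and 0.12 with quantile normalization. The cause of these shifts was not tested. No paired analysis was possible because each group has 1 library. Depth could not be read as counts, and no value has a replicate error, so an age gap such as that of Irf7 cannot be set against the spread between animals.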
